A study of Mus musculus with 2 samples.

Results

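The genes described here are 33 listed by name: 17 of glucose uptake, glycolysis and lactate export (the glycolysis arm) and 16 of the response to low oxygen (the hypoxia arm). All 33 were among the 19831 genes of both deposited tables, and no threshold on the measured values chose them. They were, however, chosen with earlier results of these data known. The tables hold single-cell RNA sequencing of CD31-sorted endothelial cells, the cells that line blood vessels, from tumours of adult C57BL/6 mice, made with 10x Genomics 3′ v3.1 chemistry. One library is labelled control and the other NF2 KO, a knockout of Nf2, which encodes merlin, a membrane-associated protein upstream of the Hippo pathway. The tumour type, the number of mice pooled, the exons removed and the driver of the deletion are not named in the labels used here.

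In the presence of oxygen, the prolyl hydroxylases EGLN1 and EGLN3 mark the α subunits of the hypoxia-inducible factors, HIF-1α (gene Hif1a) and HIF-2α (gene Epas1), for degradation. When oxygen is short the factors persist and bind the core sequence of the hypoxia response element near their target genes, among them genes of glucose uptake, glycolysis and lactate export. Endothelial cells make much of their ATP by glycolysis even in oxygen, and tip cells, which lead new sprouts, are known for high glycolysis. HIF-1α itself is regulated mainly at the protein level, which RNA counts do not show.

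The core sequence was looked for as the letters ACGTG or GCGTG, on both strands, in the 250 bases before each gene start (RefSeq promoters, GRCm38.p6), counting overlapping matches separately. Promoters were matched for 29 of the 33 genes (Hmox1, Epas1, Bhlhe40 and Ndrg1 were not matched; Ero1l is listed as Ero1a). A match lay in at least 1 promoter of 26 of these 29 genes (89.7%). The same held for 41.5% of all 27025 genes of the table and for 65.1% of the 4639 genes with a mean level of at least 20 CPM in these cells (UMIs, the molecules counted by unique molecular identifiers, per 1000000 UMIs). Per promoter the shares were 76.2% of 42, 38.6% of all 32851 and 58.5% of 5953. Tpi1, Gpi1 and Vldlr had no match in this window. A match is a description of letters and not a bound site.

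A pair of whole windows is shown because both genes are glycolytic, stood higher in the hypoxia-high cells described below and hold several matches, whose letters are in capitals. Ldha encodes the subunit of lactate dehydrogenase that favours lactate formation from pyruvate; its window (chr7:46845554-46845803, plus strand) held 5 matches, because each CACGTG reads as a match on either strand. Pgk1 encodes phosphoglycerate kinase; its window (chrX:106186850-106187099, plus strand) held 2.
Ldha: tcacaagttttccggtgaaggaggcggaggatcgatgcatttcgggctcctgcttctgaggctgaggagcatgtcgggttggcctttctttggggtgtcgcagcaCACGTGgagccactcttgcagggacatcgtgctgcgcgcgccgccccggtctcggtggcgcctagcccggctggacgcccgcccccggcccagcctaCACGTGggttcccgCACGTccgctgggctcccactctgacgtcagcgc
Pgk1: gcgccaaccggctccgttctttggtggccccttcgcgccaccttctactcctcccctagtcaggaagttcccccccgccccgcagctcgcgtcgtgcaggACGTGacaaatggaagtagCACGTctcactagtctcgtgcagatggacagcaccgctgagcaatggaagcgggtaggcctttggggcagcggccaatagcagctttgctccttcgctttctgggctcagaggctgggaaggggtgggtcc

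Single sites of 25 bases are shown for some members of the comparisons below, picked by hand from those with a match in their first listed promoter. The matched letters are in capitals and each sequence is written in the direction of its gene. The sites lie at chr4:119108699-119108723 (plus strand, 36 bases before the start) for Slc2a1, chr11:120949030-120949054 (plus, 27 bases) for Slc16a3, chr13:6648780-6648804 (minus, 23 bases) for Pfkp and chr7:138909527-138909551 (minus, 35 bases) for Bnip3. At the 3′ edge of the Slc16a3 site, AC is the start of a further match. Those of the prolyl hydroxylases lie at chr8:124949308-124949332 (minus, 68 bases) for Egln1 and chr12:54204089-54204113 (minus, 229 bases) for Egln3. The last pair lies at chr14:45318621-45318645 (minus, 63 bases) for Ero1l and chr8:45999988-46000012 (minus, 152 bases) for Ankrd37. These distances are to the RefSeq starts. By GENCODE coordinates the Slc16a3, Ero1l and Ankrd37 sites lie inside their genes, as does the Ldha window above. The Slc2a1 and Egln1 sites overlap the edge of their genes, and the Pfkp, Bnip3 and Egln3 sites lie outside. An exon was marked in the searched window of each gene with a site shown here, except Egln3.
Slc2a1: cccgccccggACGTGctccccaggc
Slc16a3: ggcagcggtgACGTGcgcgggggAC
Pfkp: ctcgggcgggGCGTGggcggctcct
Bnip3: ctccgccgccGCGTGcgtcccgccc
Egln1: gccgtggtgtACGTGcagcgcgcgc
Egln3: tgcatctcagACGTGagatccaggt
Ero1l: cgcgccgctgCACGTccgcagggga
Ankrd37: cactgcgCACGCGTGctgcggccgc

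Cell names carried 1 of 2 run numbers in each library, whose meaning the labels do not state, so the runs are parts of 1 sample and not replicates. No test between conditions is possible with 1 library per group, and no p-value is given. After filters, 1631 control cells with 29384425 UMIs (median 11114 per cell in run 1 and 21788 in run 2) and 2856 NF2 KO cells with 53638298 UMIs (median 14847 and 18413.5) were retained. One cell barcode was shared by each of 3 pairs of runs and none by the other 3 pairs. All 17 endothelial markers had a mean level of 20 CPM or more; they summed to 11051 CPM in control and 8812 CPM in NF2 KO cells, pericyte markers to 169 and 38.0 CPM and macrophage markers to 57.4 and 73.7 CPM. The part of these differences in the comparison of the libraries was not tested. Nf2 itself (chr11:4765845-4849536, minus strand), read by tags at its 3′ end, stood at 20.8 and 22.7 CPM in runs 1 and 2 of the control and at 20.4 CPM in both runs of NF2 KO, a ratio of 0.938 (95% interval 0.850 to 1.04). Tags outside the deleted exons check nothing, so the libraries are named by their labels only.

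Levels are CPM over the retained cells of a library or run, and brackets after a level or ratio give its 95% interval, which covers counting error only and not the spread between mice or libraries. A gene was called higher or lower where its ratio of CPM was at least 1.5 either way, the interval excluded 1 and the mean level was at least 20 CPM. Of the 33 members, 31 reached that level, and Hk2 and Vldlr did not.

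Between the libraries most members differed by less than the threshold. None of the 31 was called higher in NF2 KO, against 2.82% of the 5844 genes at that level, and 1 was called lower, against 5.18%. The glycolysis genes had a median log2 ratio of -0.02 over 16 genes (7 above 1 and 9 below), beside -0.03 over all genes. The hypoxia genes had a median log2 ratio of -0.19 over 15 genes, 4 above 1 and 11 below. Summed over the members, glycolysis stood at 8523 and 9395 CPM in runs 1 and 2 of the control and 9023 and 9215 CPM in those of NF2 KO, so that the runs overlapped. The hypoxia genes summed to 2585 and 2426 CPM in the control runs and to 2170 and 2300 CPM in the NF2 KO runs, which lay below both.

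**Figure D1:**
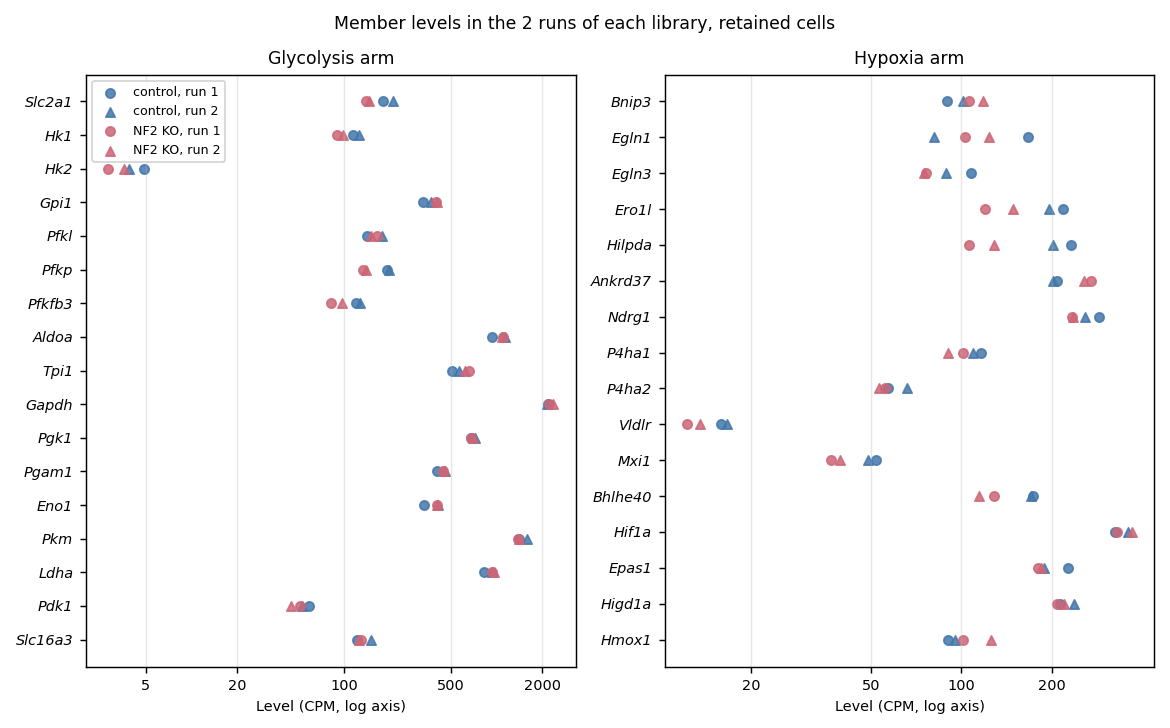
Level of each member in CPM (log axis, with other ranges in the 2 panels) in runs 1 (circles) and 2 (triangles) of the control (blue) and NF2 KO (red) libraries, retained cells. The Hilpda symbols of NF2 KO lie to the left of those of the control, the 4 Pgk1 symbols nearly coincide, and the Egln1 symbols of the control runs lie farther apart than those between libraries.

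The gene called lower was Hilpda (chr6:29272488-29275446, plus strand, mm10, GENCODE vM21), which encodes a small lipid-droplet protein that inhibits triglyceride breakdown and is induced by hypoxia. It stood at 232 and 202 CPM in runs 1 and 2 of the control and at 106 and 128 CPM in those of NF2 KO. Both NF2 KO runs were below both control runs. Over all retained cells this was 216.5 CPM (211 to 222) against 120.5 CPM (118 to 124), or 1.80-fold lower (1.74 to 1.86). The call was lost, at a ratio of 0.706, when clusters 0 and 13 were left out, whose leading genes include 1 marker of a different cell type but no endothelial marker; cluster 0 held 994 of the NF2 KO cells and 20 of the control.

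The members just short of the threshold were Ero1l, an oxidase of disulphide formation in the endoplasmic reticulum, at a ratio of 0.669 (0.646 to 0.692), and Bhlhe40, a transcriptional repressor, at 0.694 (0.669 to 0.720). Ero1l was at 218 and 197 CPM in the control runs and at 120.5 and 149 CPM in the NF2 KO runs. Bhlhe40 was at 174 and 171 CPM in the control runs and at 128 and 115 CPM in the NF2 KO runs. In both genes the runs of the libraries did not overlap.

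The genes of the HIF subunits were close between the libraries. Hif1a (chr12:73901375-73947530) was at 326 and 360 CPM in the control runs and at 330 and 371 CPM in the NF2 KO runs, which overlap, with a ratio of 1.04 (1.01 to 1.06). Epas1 (chr17:86753700-86833410) was at 227 and 189 CPM in the control runs and at 180 and 184 CPM in the NF2 KO runs, with a ratio of 0.882 (0.854 to 0.911). The NF2 KO runs of Epas1 lay below both control runs, close to run 2 and farther from run 1.

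Of the oxygen sensors, Egln3 had a ratio of 0.768 (0.732 to 0.806) and Egln1 one of 0.947 (0.909 to 0.987). Egln1 was the member that differed most between runs of 1 library, at 167 CPM in run 1 and 81.2 CPM in run 2 of the control, beside 103 and 124 CPM in the NF2 KO runs. It was the only member called between the control runs (ratio 0.485), where 0.394% of genes were called lower and 0.376% higher. No member was called between the NF2 KO runs, where 0.308% of genes were called lower and 0.958% higher. The control runs also differed in Egln1 within clusters 1, 3, 4, 6 and 7, with ratios of run 2 over run 1 between 0.444 and 0.545, and in cluster 9, with 0.765. In NF2 KO its ratios in 7 clusters lay between 0.942 and 1.67. What sets the control runs apart was not tested, and comparisons of Egln1 between the libraries therefore depend on the control run that is used.

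The other targets in the hypoxia arm lay on both sides of 1. Ankrd37, an ankyrin-repeat protein, had a ratio of 1.27 (1.23 to 1.31), Hmox1, the haem oxygenase that breaks haem into iron, carbon monoxide and biliverdin, one of 1.26 (1.21 to 1.32), and Bnip3, a receptor for the autophagy of mitochondria, one of 1.19 (1.14 to 1.24). Their NF2 KO runs were above their control runs. Below 1 with no overlap of the runs were Mxi1, a MAX-binding antagonist of MYC (0.764, 0.715 to 0.818), the collagen prolyl hydroxylase subunits P4ha1 (0.835, 0.799 to 0.873) and P4ha2 (0.876, 0.826 to 0.929), and Ndrg1, a stress-induced gene (0.860, 0.836 to 0.885). Higd1a, a mitochondrial protein, was at 0.953 (0.925 to 0.983) with overlapping runs. Vldlr, a lipoprotein receptor, was at 16.2 CPM in control and 13.1 CPM in NF2 KO cells. Counted over the 15 tested hypoxia genes, the runs did not overlap for 3 higher and 9 lower in NF2 KO; over all genes this held for 26.7% and 37.9%.

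In the glycolysis arm the 4 lowest of the 16 tested ratios were those of Pfkp, Slc2a1, Pfkfb3 and Hk1. Slc2a1 (chr4:119108711-119137983, plus strand), the glucose transporter GLUT1, was at 179 and 210.5 CPM in the control runs and at 139 and 146 CPM in the NF2 KO runs, a ratio of 0.735 (0.710 to 0.761). Pfkp, a phosphofructokinase isoform, was at 193 and 197 CPM in the control runs and at 133 and 139 CPM in the NF2 KO runs, a ratio of 0.700 (0.676 to 0.725). Pfkfb3, which makes the activator of phosphofructokinase and is known for driving glycolysis in sprouting endothelium, had a ratio of 0.741 (0.710 to 0.774), and Hk1, a hexokinase, one of 0.791 (0.757 to 0.826). None of these passed the threshold, though their NF2 KO runs lay below the control runs. Hk2, the other hexokinase, was at 4.39 CPM in control and 3.32 CPM in NF2 KO cells.

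The other tested genes of this arm had ratios between 0.848 and 1.18. Gpi1, phosphoglucose isomerase, had a ratio of 1.14 (1.12 to 1.17) and Tpi1, triose phosphate isomerase, one of 1.18 (1.16 to 1.20), and in both the NF2 KO runs were above the control runs. The ratios of Aldoa, Gapdh, Pgk1, Pgam1, Eno1, Pkm, Ldha and Pfkl lay between 0.935 and 1.09. Pdk1, the kinase that shuts pyruvate dehydrogenase, was at 0.848 (0.796 to 0.902), and Slc16a3, the lactate exporter MCT4, at 0.930 (0.894 to 0.967) with overlapping runs. Over the 16 tested glycolysis genes the runs did not overlap for 4 higher and 6 lower, beside 26.7% and 37.9% of all genes, which is near the background. Gapdh, Ldha and other glycolytic genes have near-identical retrocopies, and how the authors' counting shared reads among them is not given; Eno1b, the copy of Eno1 in the tables, was at 4.97 CPM in control and 6.67 CPM in NF2 KO cells.

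**Figure D2:**
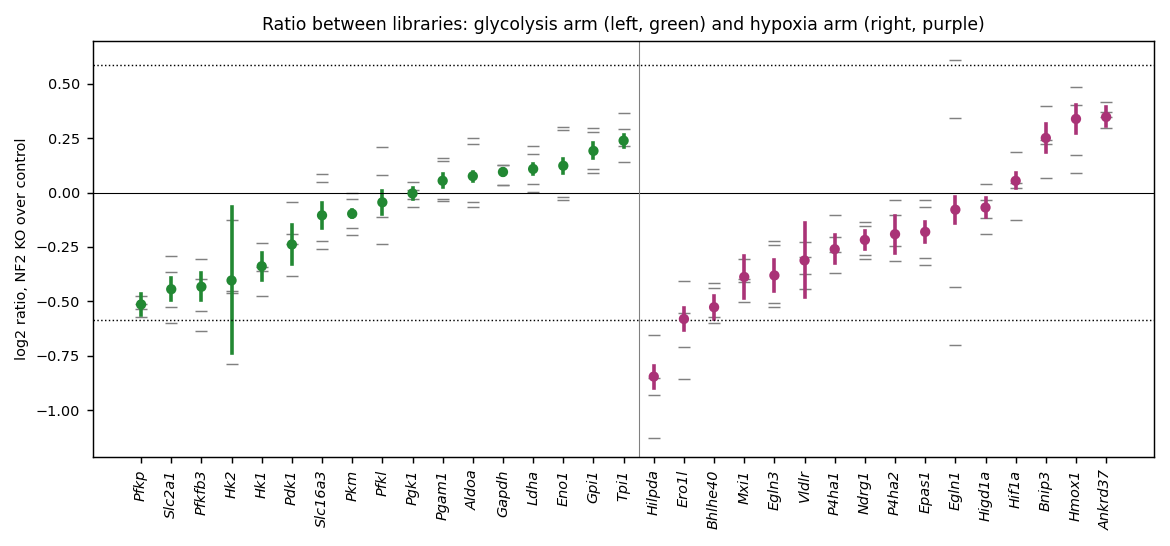
Log2 ratio of CPM, NF2 KO over control, for each member of the glycolysis arm (green, left) and hypoxia arm (purple, right), ordered within the arm. Points are the ratio of whole libraries, bars its 95% counting interval, grey dashes the 4 pairings of an NF2 KO run with a control run, and dotted lines the threshold of 1.5-fold; only Hilpda lies past it with its interval, and the Egln1 dashes spread most in the hypoxia arm.

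The choice of runs moved the medians of both arms. In the 4 pairings of an NF2 KO with a control run, which share runs with one another, the hypoxia median was below the all-gene median (-0.31, -0.15, -0.30 and -0.13, for NF2 KO run 1 over control runs 1 and 2 and NF2 KO run 2 over control runs 1 and 2). The glycolysis median was 0.06, -0.06, 0.07 and -0.12 in the same order, with a sign that followed the control run. Between the control runs alone, the glycolysis median was 0.17 higher in run 2, with 14 of 16 genes above 1, and the hypoxia median -0.09, with 5 of 15 above 1. In that order of pairings 3, 4, 2 and 1 members were called lower, beside 6.66%, 5.13%, 6.64% and 4.53% of all genes. None was called higher in the first 3 pairings and 1, Egln1, in the last, beside 3.03%, 2.96%, 3.3% and 2.93% of all genes. Hilpda was lower in each; Ero1l (in 2), Slc2a1, Pfkfb3, Bhlhe40 and Egln1 (in 1 each) were the others.

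Within the libraries, cells high in hypoxia genes were compared with cells low in them. Cells with at least 5000 UMIs were thinned to that number and ranked within their library by the mean z-score of 13 hypoxia genes (the arm without Hif1a, Epas1 and Hmox1), and the highest 25% (hypoxia-high cells) were set against the lowest 25% (hypoxia-low cells). This left out 372 control and 196 NF2 KO cells and gave 314 against 314 of 1259 control cells and 665 against 665 of 2660 NF2 KO cells. The cells left out were unequal between runs, at 350 and 22 in control runs 1 and 2 and 89 and 107 in those of NF2 KO. They were also unequal between clusters. In cluster 6, described below, 100 of 147 control and 290 of 311 NF2 KO cells were ranked. In the mitotic cluster 7 these were 82 of 244 and 143 of 186. The glycolysis genes are not in the score. In the ratios of high over low cells each score gene was read with the other 12 as the score. Its own counts thus did not place the cells there.

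The glycolysis genes stood higher in the hypoxia-high cells of both libraries. In control cells 15 of the 16 tested were called higher, against 8.33% of 5801 genes, with a median log2 ratio of 1.24 beside -0.09 over all genes; the one not called was Pdk1, at 1.48 (1.08 to 2.04) there and 1.84 (1.46 to 2.32) in NF2 KO. In NF2 KO cells all 16 were called higher, against 10.6% of 5785 genes, with a median of 1.34 beside -0.09. Hk2 was under the level in both.

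The carriers at both ends of the pathway had the highest ratios of the glycolysis genes tested. Slc2a1 stood at 502 CPM in hypoxia-high and 59.9 CPM in hypoxia-low cells of control run 1, at 516 and 58.5 CPM in run 2, at 364 and 60.2 CPM in NF2 KO run 1 and at 393 and 43.5 CPM in run 2. The high cells were above the low cells in all 4 runs, with ratios by library of 8.45 (6.83 to 10.6) in control and 7.77 (6.60 to 9.21) in NF2 KO. Slc16a3 stood at 286 against 31.1 CPM and 279 against 54.4 CPM in the control runs and at 258 against 53.5 CPM and 255 against 39.5 CPM in the NF2 KO runs. Its ratios were 6.83 (5.26 to 9.0) and 5.83 (4.88 to 7.0). From the lowest to the highest 25% of cells Slc2a1 stood at 60.3, 76.8, 117.5 and 511 CPM in control and at 49.0, 63.2, 87.5 and 381 CPM in NF2 KO. Most of its difference lay in the last step.

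The tested enzymes of the pathway itself had ratios from 1.65 to 3.92, all called higher. Tpi1 was at 3.51 (3.16 to 3.92) in control and 3.92 (3.66 to 4.21) in NF2 KO, and Pgk1 at 3.12 (2.84 to 3.43) and 3.37 (3.15 to 3.6). Pfkp, at 2.93 and 3.56, and Pfkl, the liver-type phosphofructokinase, at 2.66 and 3.0, had higher ratios than the activator gene Pfkfb3, at 1.93 (1.58 to 2.38) and 2.57 (2.19 to 3.03). Gapdh, the dehydrogenase after the split of the sugar, was at 2.18 and 2.08, Ldha at 2.04 and 1.84, and Pkm, pyruvate kinase, had the lowest ratio of the enzymes in both, at 1.69 (1.59 to 1.79) and 1.65 (1.58 to 1.72). Aldolase (Aldoa) was at 2.0 and 2.52, Gpi1 at 2.36 and 2.53, Hk1 at 2.11 and 2.23, Eno1, enolase, at 2.40 and 2.23, and Pgam1, phosphoglycerate mutase, at 2.36 and 2.02.

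**Figure D3:**
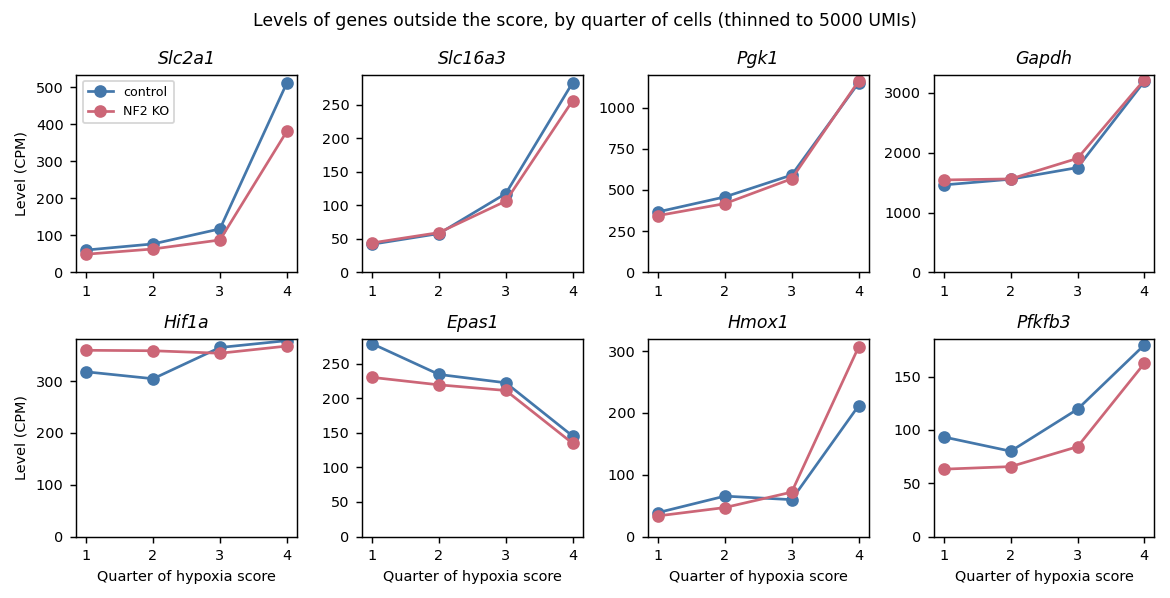
Level in CPM of 8 genes outside the hypoxia score in cells thinned to 5000 UMIs, in 25% steps of the hypoxia score from lowest (1) to highest (4), in control (blue) and NF2 KO (red) cells, with an axis from 0 of its own for each gene. Slc2a1 and Slc16a3 are highest by far in the last step, Gapdh and Pgk1 start from a level well above 0, Hif1a is nearly level, and Epas1 is lowest in the last step.

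The HIF subunit genes did not have the high ratios of the targets. Hif1a was at 378 CPM in high and 318 CPM in low cells of the control, a ratio of 1.19 (1.05 to 1.34), and at 368 and 360 CPM in NF2 KO, a ratio of 1.02 (0.943 to 1.11). Epas1 was lower in hypoxia-high cells: 135 against 289 CPM and 140 against 268 CPM in the control runs, and 153 against 219 CPM and 122 against 236.5 CPM in the NF2 KO runs. Its high cells were below its low cells in all 4 runs, and it was called lower in both libraries, 1.92-fold in control and 1.71-fold in NF2 KO cells, where 10.9% and 14.2% of genes were. With the 25% taken within each cluster Epas1 had a ratio of 0.684 (0.585 to 0.799) in control and 1.04 (0.935 to 1.16) in NF2 KO, neither called; with cluster 6 left out they were 0.620 and 0.805. Hmox1, which is outside the score, was at 211 against 38.9 CPM in control, a ratio of 5.44 (4.13 to 7.27), and at 306 against 33.4 CPM in NF2 KO, a ratio of 9.18 (7.54 to 11.3).

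Read by the other 12 score genes, 12 of the 13 were called higher in control and 13 of 13 in NF2 KO, beside 8.33% and 10.6% of all genes; Bhlhe40 in control was at 1.44 (1.22 to 1.71). Of these calls 3 in control (Bnip3, Egln3 and Vldlr) and 4 in NF2 KO (also Mxi1) were of genes under 20 CPM in the hypoxia-low cells, which passed the level through the hypoxia-high cells and had to differ. Since the genes were listed together for their known response, this is given as a description. The prolyl hydroxylase gene Egln3 was at 311 against 15.6 CPM and 230 against 21.8 CPM in the control runs and at 254 against 7.43 CPM and 218 against 8.10 CPM in the NF2 KO runs, with ratios of 14.8 (10.2 to 22.4) and 30.9 (20.8 to 48.1). Bnip3 had ratios of 15.2 (10.3 to 23.1) and 21.1 (16.2 to 28.1), and Ero1l of 9.75 (7.83 to 12.3) and 7.75 (6.58 to 9.19). Vldlr was detected almost only in the high cells (53.5 against 1.91 CPM and 50.5 against 1.5 CPM), and had ratios of 28.0 (9.26 to 138.5) and 33.6 (14.1 to 105). Egln1, which hydroxylates HIF-α in normal oxygen, had ratios of 3.80 and 3.42, Hilpda of 5.83 and 6.41, Ankrd37 of 4.63 and 4.77, and Ndrg1 of 3.54 and 2.27. P4ha2, at 4.67 and 5.83, had higher ratios than P4ha1, at 2.53 and 2.17. Mxi1 was at 4.41 and 8.05 and Higd1a at 2.66 and 2.73.

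**Figure D4:**
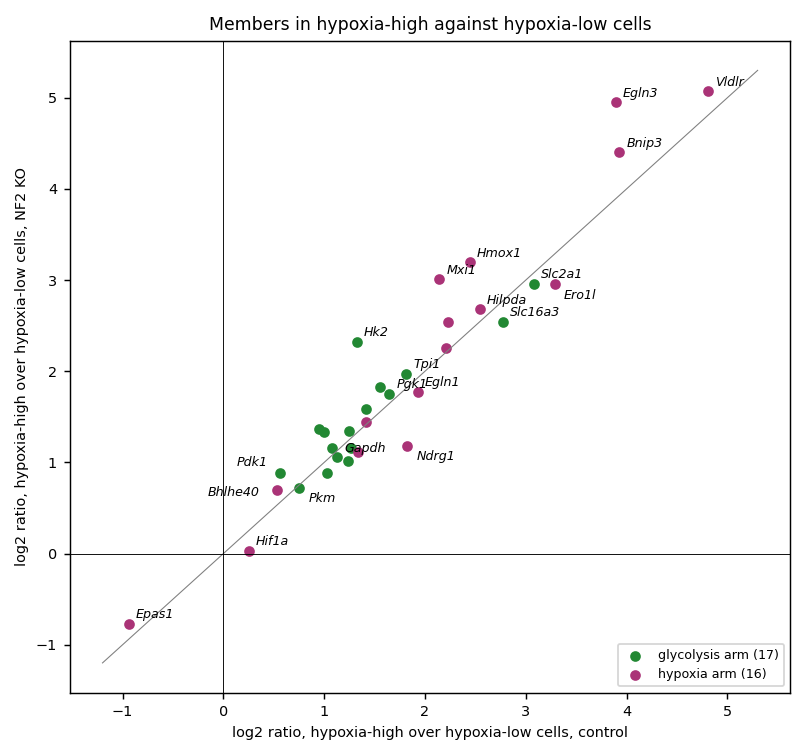
Log2 ratio of CPM in hypoxia-high over hypoxia-low cells, in control (horizontal axis) against NF2 KO cells (vertical axis), for the 17 glycolysis (green) and 16 hypoxia genes (purple); the grey line marks equal ratios. Epas1 is the only gene below 0 on both axes, Hif1a lies next to 0, and Vldlr, Egln3 and Bnip3 lie farthest out.

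The high and low cells also differed in what other genes they expressed and in their clusters. Clusters are groups of cells alike over 2000 variable genes, and cluster 6, led by Vegfa, Bnip3, Ero1l, Ankrd1 and Slc2a1, gave 98 of its 100 ranked control cells and 281 of its 290 NF2 KO cells to the hypoxia-high cells and none to the low ones. Members are thus among the genes that define this cluster. The 9 tip cell markers summed to 6723 CPM in high and 2066 CPM in low control cells and to 8601 and 2464 CPM in NF2 KO cells; 2 of these 9, Esm1 and Apln, are also in the list of further hypoxia targets. S-phase genes summed to 276 against 544 CPM and G2/M genes to 399 against 748 CPM in control cells, and to 234 against 589 CPM and 191 against 882 CPM in NF2 KO cells. The 17 endothelial markers, all detected in each of the 4 sets of cells, summed to 10438 against 11573 CPM and 7368 against 9716 CPM, and median depth before thinning was 20996 against 16808 UMIs and 18204 against 16327 UMIs.

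The part of these differences in the ratios was not tested, apart from cluster and cycling below. Markers of other cell types were low in both. Macrophage markers (9 to 11 of 12 detected, Adgre1 at 0 in each of the 4 sets) summed to 42.0 CPM in high and 72.6 CPM in low control cells and to 57.1 and 88.7 CPM in NF2 KO cells. Lymphocyte markers summed to at most 1.27 CPM. Neutrophil markers summed to 40.8 against 84.7 CPM and 83.6 against 65.9 CPM. Epithelial and tumour markers, with Epcam and Krt19 at 0 in each set, summed to 12.1 against 5.10 CPM and 64.1 against 11.4 CPM, of which Cldn4, a leading gene of cluster 0, gave 11.5 and 58.3 CPM in the high cells. Pericyte markers summed to 189 against 106 CPM in control cells, mostly Kcnj8, a leading gene of cluster 3, and to 35.2 against 40.3 CPM in NF2 KO cells. Genes of dissociation stress summed to 7683 against 7430 CPM and 6324 against 4832 CPM.

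The median ratio of the glycolysis genes stayed above 1, at a lower value, with cluster 6 left out and with the 25% taken within each cluster. Only the latter held the clusters fixed. With cluster 6 left out, 16 of 16 were called higher in control (background 6.24%) and 14 of 16 in NF2 KO (6.82%), with median log2 ratios of 0.96 and 0.89. With the 25% taken within each cluster, 11 of 16 were called in control (3.53%) and 9 of 16 in NF2 KO (2.7%), with medians of 0.69 and 0.62. Slc2a1 was then at 2.75 (2.31 to 3.29) and 2.53 (2.20 to 2.90), and Slc16a3 at 2.98 and 2.60. With cycling cells left out the median of the control was 1.52, and Slc2a1 was at 9.82 in control and 8.21 in NF2 KO.

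By cluster, the sums of both arms peaked in cluster 6. Its glycolysis genes summed to 18458 CPM in control and 16872 CPM in NF2 KO cells, and its hypoxia genes to 7624 and 6211 CPM, as a description since these genes define it. Elsewhere, in clusters with at least 20 cells of the library, glycolysis ranged from 3700 CPM (cluster 8, NF2 KO, led by the lipid genes Cd36 and Lpl among others) to 11294 CPM (cluster 11, NF2 KO, led by interferon-induced genes), and the hypoxia arm from 1336 CPM (cluster 7, NF2 KO, mitotic) to 2754 CPM (cluster 11, NF2 KO). Epas1 was lowest in cluster 6, at 95.5 and 82.4 CPM, and at 333 and 249 CPM in cluster 1, led by the capillary gene Cd300lg. Hif1a was at 371 and 369 CPM in cluster 6 and highest in cluster 10, led by the venule genes Ackr1 and Selp, at 571 and 557 CPM. Among the same clusters Pfkfb3 was highest in cluster 4, at 285 CPM in control and 283 CPM in NF2 KO, beside 223 and 136 CPM in cluster 6.

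**Figure D5:**
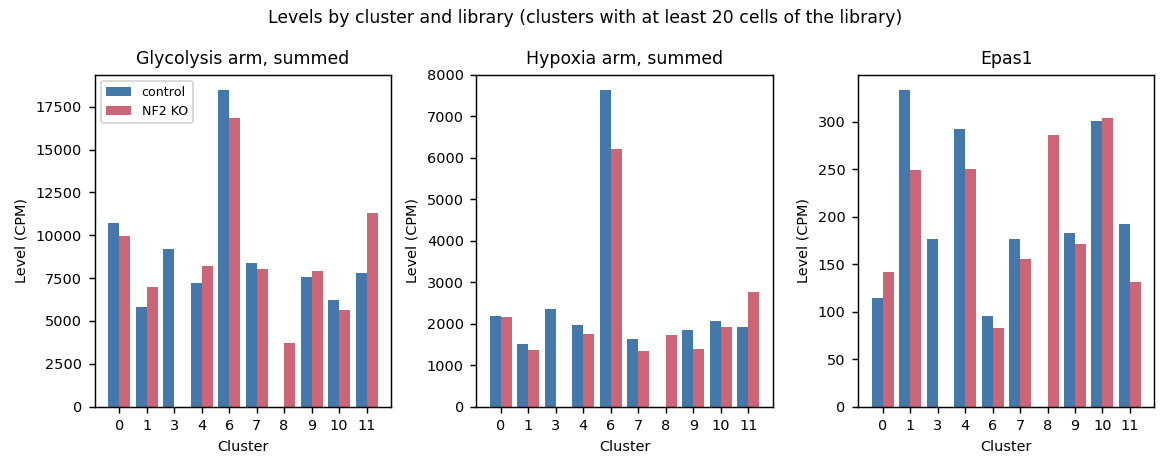
Levels in CPM of the summed glycolysis arm, the summed hypoxia arm and Epas1, by cluster, in control (blue) and NF2 KO (red) cells; bars start at 0 and are missing where a library has under 20 cells in the cluster. Cluster 6 is highest in both sums and lowest in Epas1.

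The libraries were also compared within clusters that held at least 100 cells of each. In cluster 6, which members help to define, 6 of 32 tested members were called lower in NF2 KO, beside 8% of 5403 genes, and none higher (3.79%). Slc2a1 was at 999 against 641 CPM there, 1.56-fold lower (1.48 to 1.64), and Ero1l at 1142 against 660 CPM, 1.73-fold lower (1.65 to 1.82); the others were Hilpda, Ndrg1, Pfkp and Pfkfb3. In the mitotic cluster 7, 7 of 31 were lower (7.35%): Bnip3, Egln3, Hilpda, Mxi1, Slc2a1, Pfkp and Pfkfb3. In cluster 9, led by histone and cell-cycle genes, 7 of 31 were lower (5.2%), among them Hilpda at 136 against 47.9 CPM, 2.84-fold (2.42 to 3.33), Egln3, Ero1l, Ndrg1, Mxi1, Bhlhe40 and Slc2a1. In cluster 4, led by antigen-presentation and interferon-γ-induced genes, 3 of 31 were lower (4.93%), namely Egln3 at 45.1 against 14.1 CPM, Hilpda and Ndrg1, and in cluster 1 none of 28 (5.23%). Egln3 in clusters 4, 7 and 9 and Mxi1 in clusters 7 and 9 were under 20 CPM in NF2 KO and passed the level through the control alone, which leaves 2, 5 and 5 calls in clusters 4, 7 and 9 that do not rest on this. No member was called higher in clusters 1, 4, 6, 7 and 9, where 2.34%, 2.98%, 3.79%, 3.44% and 3.47% of genes were. Hilpda was thus called lower in 4 of the 5 clusters and had a ratio of 0.914 (0.781 to 1.07) in cluster 1.

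Set against each other between the libraries, the hypoxia-high cells differed by 1 called member, Hilpda, lower in NF2 KO (1 of 32 tested, beside 7.6% lower and 4.58% higher of all genes), and the glycolysis median was -0.01. In hypoxia-low cells Pfkp, Hilpda and Bhlhe40 were lower (3 of 27, beside 6.62% lower and 3.26% higher). Here the cells were ranked by all 13 score genes. The counts of Hilpda and Bhlhe40 thus helped to place the cells in which they were called, and their calls are given as a description. The cells were ranked within each library, and the mean score of the hypoxia-high cells was 0.844 in control and 0.710 in NF2 KO, so these sets were not matched by score. Nor were they matched by cluster. Of the hypoxia-high cells, 152 of 314 in control and 7 of 665 in NF2 KO were of cluster 3. Cluster 0 held 3 of those in control and 280 of those in NF2 KO. The part of this in the comparison was not tested. At a common score, the 75th percentile of all ranked cells, 27.6% (25.1 to 30.1) of control and 23.8% (22.2 to 25.5) of NF2 KO cells lay above it; 73 and 105 cells lay within 0.05 of it. By run these shares were 29.1% and 25.9% in control and 23.5% and 23.97% in NF2 KO. The cells left out for depth were unequal between runs and clusters, as given above, and their part in these shares was not tested. Across cells, the score of the hypoxia genes and the mean z-score of the glycolysis genes had a Pearson correlation of 0.71 over 1259 control cells and 0.68 over 2660 NF2 KO cells (Spearman 0.62 and 0.61), where the cells share a library and equal depth and are not replicates.

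Single pairs of members were less alike across cells, with few UMIs each. The closest partner of Gapdh in control was Ldha (r = 0.52) and in NF2 KO Aldoa (0.53). Tpi1 and Pgk1 were each other's closest in NF2 KO (0.53), as were Bnip3 and Egln3 (0.52), and in control Slc2a1 was closest to Ero1l (0.49). For Epas1 the highest correlation with any other member was 0.02 in control and 0.10 in NF2 KO, with Hif1a in both.

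Other genes of these pathways, in lists apart from the members, were read in the same way. These lists too were chosen with earlier results of these data known. Of 40 further hypoxia targets 23 were tested between the libraries, with 4 called higher and 5 lower, beside 2.82% and 5.18% of all genes. Their median log2 ratio was 0.02. Apln, the ligand apelin, was at 875 and 789 CPM in the control runs and 1501 and 1568 CPM in the NF2 KO runs, a ratio of 1.86 (1.83 to 1.89), and Cited2 (1.71) and Esm1 (1.60) were also among those higher. Igfbp3, an IGF-binding protein, was 3.02-fold lower and Stc1, a secreted glycoprotein, 2.15-fold lower, with Mt1, Mt2 and Plod1 also lower. The hypoxia targets thus had calls in both directions between libraries. The runs did not overlap in the 8 named here, which were named because they were called. Over all 23 tested the runs did not overlap for 6 higher and 11 lower, beside 26.7% and 37.9% of all genes. Of the other lists, none of the 8 tested genes of further glycolysis, of the 10 of HIF regulation or of the 11 of NRF2 and haem handling was called.

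Between hypoxia-high and hypoxia-low cells, 23 of 27 of these further targets were called higher in control and 20 of 27 in NF2 KO, beside 8.33% and 10.6% of all genes. In each library 8 of these calls, Vegfa, Ak4 and Gys1 among them, were of genes that passed the level through the hypoxia-high cells alone, which leaves 15 and 12. Vegfa, the growth factor of vessel sprouting, had a ratio of 36.0 in control and 33 in NF2 KO, Ak4, a mitochondrial adenylate kinase, of 31.7 and 21.2, and Adm, adrenomedullin, of 6.54 and 5.06. Of the 8 tested genes of further glycolysis, Pgm2, a phosphoglucomutase, was called higher in both (4.48 and 4.12), through the level of the hypoxia-high cells alone. The pyruvate carrier genes Mpc1 and Mpc2, Pgm1 and Minpp1 were called lower in NF2 KO and not in control (ratios of 0.560, 0.659, 0.614 and 0.621; Minpp1 was under 20 CPM in the hypoxia-high cells), and the difference from control (0.939, 0.684, 0.862 and 0.927) was not tested. Among the NRF2 and haem genes, Fth1, ferritin heavy chain, was called in both (1.55 and 1.61), next to the ratios of Hmox1 above; Osgin1, which was under 20 CPM in the hypoxia-low cells, was called in control and Ftl1, ferritin light chain, in NF2 KO. Among the HIF regulators Arnt, the HIF-β subunit, at 1.58, and Siah2, a ubiquitin ligase, at 2.26, were called higher in NF2 KO, both under 20 CPM in the hypoxia-low cells, and none in control.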

How the data were processed

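The authors deposited 1 table per library with natural log values, which per the values are the natural log of 1 plus 10000 times UMIs over the cell's total; the analysis had been planned for counts. Whole UMIs were recovered for 100% of values (tolerance 0.01). Cell Ranger 3.0.0, Seurat 3.1.1 and mm10 are named in the submitters' processing notes; settings are not given in the sources used here. Gene coordinates follow GENCODE vM21 and promoters RefSeq GRCm38.p6.

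Filters on cells were 500 genes and 1000 UMIs as minimum and 10% mitochondrial UMIs as maximum. The doublet caller (Scrublet) marked 0% of cells and so had not worked; the top-scoring 5% were removed (129 control, 166 NF2 KO). Leiden clustering (30 components, 2000 variable genes, 15 neighbours, resolution 0.8, scanpy 1.11.5, leidenalg 0.10.2) gave 16 clusters. Those at under 0.333 of their library's depth without a leading endothelial marker, or whose leading genes held 2 or more markers of a different type beyond their endothelial ones (2, 5, 12, 14 and 15), were left out: 812 control and 290 NF2 KO cells. Clusters 0 and 13, with 1 such marker each, stayed. UMIs were summed per library or run. Levels have exact Poisson, ratios exact conditional and shares exact Clopper-Pearson intervals (95%), computed with scipy 1.17.1, numpy 2.4.6 and Python 3.11.15. The calling script was tested on simulated data.

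The members and all lists were chosen with earlier results of these data known. Named genes are all 33 members, up to 6 examples per further list by largest ratio, and the 10 highest and 5 lowest non-members between hypoxia-high and hypoxia-low cells among genes with at least 20 CPM in both libraries, ranked by the ratio nearer to 1. Alternatives varied cells kept, runs, weights, depth, cluster weights, scaling, level, size rule, score and share of cells. One gene of a further list is not reported here.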

Additional observations from a re-analysis of the deposited data

How the results depend on the processing

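There were 17 alternatives for the libraries and 12 for the high and low cells. No paired analysis was possible because each group has 1 library and the runs carry no stated pairing. No member was called higher in NF2 KO under any of the 17. The count of lower members (1) became 2 without control run 2 (Ero1l added), without NF2 KO run 1 (Bhlhe40 added), with each cell weighted equally or with clusters 0 and 3 left out (Ero1l added), 3 without NF2 KO run 2 (Ero1l and Pfkfb3 added), 6 in cluster 6 alone and 0 at a ratio of 2. Without clusters 0 and 13 it stayed 1, but with Pfkp in place of Hilpda. The share of all genes called lower was 5.18% in the main setting and 8% in cluster 6 alone. It was not taken under the other alternatives, so a shift in these counts cannot be told from a shift in that share. The hypoxia median (-0.19) was -0.10 without clusters 0 and 13, -0.31 without control run 2, -0.061 thinned to 2000 UMIs and -0.28 in cluster 6 alone. The glycolysis median (-0.02) was -0.16 without clusters 0 and 13, 0.078 without control run 2 and -0.17 in cluster 6 alone. Between high and low cells, the glycolysis median of control (1.24) was 1.19 by the number or summed UMIs of score genes, 1.60 in the extreme 10% of cells, 1.09 thinned to 2000 UMIs, 1.30 without clusters 0 and 13, 1.52 without cycling cells, 0.69 within clusters and 0.96 without cluster 6. That of NF2 KO (1.34) was 1.24 by summed UMIs, 1.29 without Bhlhe40, Mxi1 and Vldlr in the score, 1.79 in the extreme 10% of cells, 1.14 thinned to 2000 UMIs, 1.20 in run 1 alone, 1.26 in all deposited cells, 1.42 without clusters 0 and 13, 0.62 within clusters and 0.89 without cluster 6; its count of 16 fell to 9 within clusters. Cluster 6 alone or left out, and clusters 0 and 3 left out, were chosen after seeing the data. The causes were not tested. With 1 library per group, the spread between mice is unknown, and every interval covers counting error only.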

Other observations

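Among non-members with at least 20 CPM in both libraries, a level that Vegfa, Ak4 and Zfp395 did not reach, the genes with the highest ratios of hypoxia-high over hypoxia-low cells, ranked by the lower ratio of the libraries, were Pgf, placental growth factor and one of the tip cell markers, at 1492 CPM in high and 162 CPM in low control cells and 1806 and 135 CPM in NF2 KO cells (ratios 9.19 and 13.4), Fhl2, a LIM-domain cofactor (7.12 and 10.3), Sdc4, the proteoglycan syndecan-4 (6.47 and 8.75), and Lgals3, galectin-3 (5.90 and 5.76). Tiparp, an ADP-ribosyltransferase (8.88 and 5.38), Prelid2 (5.3 and 8.92), Tec, a tyrosine kinase (5.27 and 6.38), and Rnf24 (7.92 and 5.03) came next, with Plod2 (5.43 and 6.79) and Adm of the hypoxia targets among the 10 so ranked. The level was taken over whole libraries. In the hypoxia-low cells Fhl2, Sdc4, Plod2, Prelid2, Tec and Rnf24 were under 20 CPM in both libraries, and Tiparp in control. These genes passed the level through other cells, so their ratios are given as a description. Between the libraries Fhl2 had a ratio of 0.508 and Sdc4 one of 2.20, so that genes alike in their relation to the score lay on opposite sides of 1 there.

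At the same level, the genes with the lowest ratios were Cd300lg, a receptor of capillary endothelium, 8.52-fold lower in control and 7.46-fold lower in NF2 KO cells, Rbp7, a retinol-binding protein (8.25-fold and 7.06-fold), Aplnr, the receptor of apelin (6.32-fold and 14.3-fold), B4galt4 (6.2-fold and 6.71-fold) and the chemokine Cxcl10 (5.10-fold and 5.24-fold). The ligand gene Apln went the other way, with ratios of 3.12 and 2.22. Of the genes with the lowest ratios, Rbp7, Aplnr and B4galt4 were under 20 CPM in the hypoxia-high cells of both libraries, and Cd300lg in those of control. They too passed the level through other cells. All 18 genes of mitochondrial respiration had ratios below 1 in both libraries. Over all tested genes this held for 3382 of 5801 in control and 3342 of 5785 in NF2 KO. Of the 18, 1 was called lower in control and 5 in NF2 KO, beside 10.9% and 14.2% of all genes. Ndufa4, a subunit of cytochrome oxidase, was the lowest at 0.568 and 0.306. The high and low cells also differ in cluster and cycling, as given above, and the part of these in the values was not tested.

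In the cells left out for depth or other markers, the glycolysis genes summed to 8945 CPM in control and 9628 CPM in NF2 KO and the hypoxia genes to 2109 and 1649 CPM, from 2293018 and 1059592 UMIs.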
